A study of Mus musculus with 14 samples.

Results

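Of the 52550 genes in the count table, 36 genes of T cells and natural killer (NK) cells were followed across 14 mouse bone marrow libraries. The genes were taken by name from a list of T and NK cell genes. They comprised 4 CD3 and zeta chains, 3 coreceptors, 8 surface glycoproteins and costimulatory receptors, 5 signalling proteins that act close to the T cell receptor, 6 NK receptor genes including Il2rb, 5 effector genes of cytotoxic cells including Ccl5, and 5 transcription factors. Counts above 0 were found for 35 of the 36. Cd27, a costimulatory receptor of the tumour necrosis factor receptor family, was listed at 0 in all 14 libraries, as were other genes that blood progenitors use, and is not described further.

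The libraries came from 3 groups of C57BL/6 cells: 4 wild-type (WT) samples of hematopoietic stem and progenitor cells (HSPCs) enriched from bone marrow, 4 HSPC samples from Mir139KO mice, in which the microRNA gene Mir139 was deleted with Cas9 nickases, and 6 samples of WT HSPCs transformed with MLL-AF9. MLL-AF9 is a leukemia fusion of a histone methyltransferase with AF9, delivered here by a retrovirus with neomycin resistance (neo, replicates 1 to 3) or puromycin resistance (puro, replicates 4 to 6). Mice were 8 to 20 weeks of age. HSPCs were enriched with a kit that removes cells carrying surface markers of mature blood lineages, whereas MLL-AF9 cells were grown with SCF and the cytokines GM-CSF, IL-6 and IL-3, selected for the vector, and replated in methylcellulose before lysis. The labels do not say for each HSPC sample whether it was lysed right after isolation, and none is labelled as cultured like the MLL-AF9 cells, so that culture and the fusion cannot be told apart. Mir139 itself was listed at 0 in all libraries in this count table so that the deletion was not checked in these counts. The labels do not say whether samples of a group came from separate mice or transductions, and p-values measure only the spread between these samples.

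T cells recognise antigen through a receptor whose variable chains carry no signalling part of their own. The CD3 chains and the zeta chain transmit the signal, Lck phosphorylates them, Zap70 docks on the phosphorylated chains, and the adaptor Lat passes the signal on, while the coreceptors CD4 and CD8 bring Lck to the receptor. NK cells carry no such receptor and are controlled by activating and inhibitory receptors of the NKp46 and lectin-like families. Both cell types share cytotoxic proteins, the IL-2 receptor beta chain and the T-box factors Tbx21 (T-bet) and Eomes.

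Promoter windows, the 250 bases before the RefSeq start (build GRCm38.p6), were found for 24 of the 36 genes. Those below are examples: Cd3d, Cd3g, Lck, Gzmb and Tbx21 were called lower in MLL-AF9 cultures, whereas the zeta chain gene Cd247 did not pass. Capitals mark exact matches, on either strand, to core letters of factors known from T and NK cells. For the ETS family the letters searched were AGGAAG, for the RUNX family they were TGTGGT, and for the GATA factors they were AGATAA. For TCF-1 and LEF-1 the search used CTTTGA, and for the T-box factors it used TCACAC. Every window shown holds a match. Those of Cd8a, Eomes and Gata3, also called lower, hold none and are not shown. Lck has another window, with 2 matches, which is not shown either.
Cd3d, chr9:44981536-44981785, plus strand: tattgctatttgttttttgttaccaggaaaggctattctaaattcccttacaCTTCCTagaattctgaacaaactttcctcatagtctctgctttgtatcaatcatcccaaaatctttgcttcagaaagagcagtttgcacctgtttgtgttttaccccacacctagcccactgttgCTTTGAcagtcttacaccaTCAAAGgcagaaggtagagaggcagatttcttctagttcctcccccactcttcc
Cd3g, chr9:44980432-44980681, minus strand: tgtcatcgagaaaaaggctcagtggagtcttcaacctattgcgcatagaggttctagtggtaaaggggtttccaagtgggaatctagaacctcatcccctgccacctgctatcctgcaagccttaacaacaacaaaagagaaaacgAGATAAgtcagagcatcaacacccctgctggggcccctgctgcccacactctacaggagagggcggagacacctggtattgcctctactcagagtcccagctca
Cd247, chr1:165788431-165788680, plus strand: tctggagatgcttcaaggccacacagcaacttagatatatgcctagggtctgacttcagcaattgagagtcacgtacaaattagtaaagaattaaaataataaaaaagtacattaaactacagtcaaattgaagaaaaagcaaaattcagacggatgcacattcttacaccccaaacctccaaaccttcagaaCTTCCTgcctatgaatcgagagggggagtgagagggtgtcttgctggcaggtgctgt
Lck, chr4:129573642-129573891, minus strand: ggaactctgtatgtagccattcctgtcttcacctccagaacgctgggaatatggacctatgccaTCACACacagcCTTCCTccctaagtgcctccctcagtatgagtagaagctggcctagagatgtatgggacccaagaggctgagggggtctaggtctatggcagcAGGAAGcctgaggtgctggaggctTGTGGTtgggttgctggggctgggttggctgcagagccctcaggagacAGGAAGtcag
Gzmb, chr14:56262335-56262584, minus strand: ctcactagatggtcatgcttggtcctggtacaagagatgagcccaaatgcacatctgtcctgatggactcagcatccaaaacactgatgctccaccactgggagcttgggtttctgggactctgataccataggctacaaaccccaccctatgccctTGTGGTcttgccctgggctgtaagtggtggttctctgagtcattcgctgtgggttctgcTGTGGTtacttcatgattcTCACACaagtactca
Tbx21, chr11:97115332-97115581, minus strand: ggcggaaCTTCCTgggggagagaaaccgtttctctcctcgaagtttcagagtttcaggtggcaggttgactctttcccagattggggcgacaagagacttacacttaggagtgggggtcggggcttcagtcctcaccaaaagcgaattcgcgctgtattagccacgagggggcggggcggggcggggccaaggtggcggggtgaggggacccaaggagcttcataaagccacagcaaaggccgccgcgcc

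The ETS letters stood in 15 of the 31 windows of the 24 genes (48.4%) and in 29.5% of all 32851 windows of that table. The RUNX letters stood in 38.7% against 14.05%, the T-box letters in 29.0% against 12.3%, the GATA letters in 6.45% against 9.99% and the TCF-1 and LEF-1 letters in 12.9% against 13.8%. The windows are not separate, since those of Ncr1 start 9 bases apart and hold the same matches, and those of Klre1 start 73 bases apart. Counted by gene, the ETS letters stood in at least 1 window of 13 of the 24 genes, the RUNX letters in 11, the T-box letters in 7, the TCF-1 and LEF-1 letters in 4 and the GATA letters in 2. A match is a run of letters in the sequence, and binding was not measured.

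Total counts were 35016668 to 45877994 per library, so that 3 counts, taken as the lowest level that can be read, were worth 0.0544 to 0.129 normalised CPM. Normalised CPM are counts scaled to the library total (CPM), with the totals adjusted by TMM factors. A single noncoding gene, Gm26917, took 16.99 to 21.9% of the counts in 4 HSPC libraries (WT replicates 1 and 2, Mir139KO replicates 2 and 3), 32.7 to 35.4% in the other 4 and 7.55 to 10.4% in MLL-AF9 libraries. The progenitor genes Kit, Cd34 and Flt3 were at 198 ± 29.2, 39.9 ± 5.78 and 53.4 ± 11.8 normalised CPM in WT HSPCs (SD, n = 4), and none of the 8 stem and progenitor markers was at 0 in a group. In MLL-AF9 cultures they were at 67.2 ± 28.6, 0.887 ± 0.678 and 1.40 ± 2.07 (SD, n = 6), so that Cd34 and Flt3 were low there. Not all of the 8 markers behaved in this way. Ly6a had 450 to 943 counts in the HSPC libraries and 93, 168, 181, 4069, 103 and 3655 in MLL-AF9 replicates 1 to 6.

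T and NK cell transcripts were present in every HSPC library. Per kilobase of merged exons, Nkg7, which encodes a granule membrane protein of cytotoxic cells, was highest in WT HSPCs, with 95.3 ± 34.5 normalised CPM per kb (SD, n = 4). The chemokine gene Ccl5 followed with 23.4 ± 8.94, Il2rb with 13.7 ± 5.32 and the surface glycoprotein gene Thy1 with 12.5 ± 6.08 on the same scale. The ranges of Ccl5, Il2rb and Thy1 over the 4 libraries overlapped, whereas Nkg7 stood above all of them. The lowest levels with counts were those of Klre1 (0.222 ± 0.151), Icos (0.325 ± 0.191) and Cd28 (0.344 ± 0.189). Over all 6 MLL-AF9 cultures the order was led by Thy1 (12.03 ± 14.03), Nkg7 (4.46 ± 4.13) and Cd28 (2.66 ± 1.69), whose ranges overlapped (SD, n = 6). Thy1 led in the puro cultures, at 13.1 to 29.4, and in the neo cultures was at 0.243 to 0.485, below Nkg7 (1.88 to 2.31), Cd247 (1.08 to 1.90) and Cd28 (0.642 to 3.84). The constant segments of the T cell receptor itself were present as well, with Trac at 8.13 to 17.2 and Trbc2 at 8.28 to 13.2 normalised CPM in the 4 WT libraries.

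**Figure D1:**
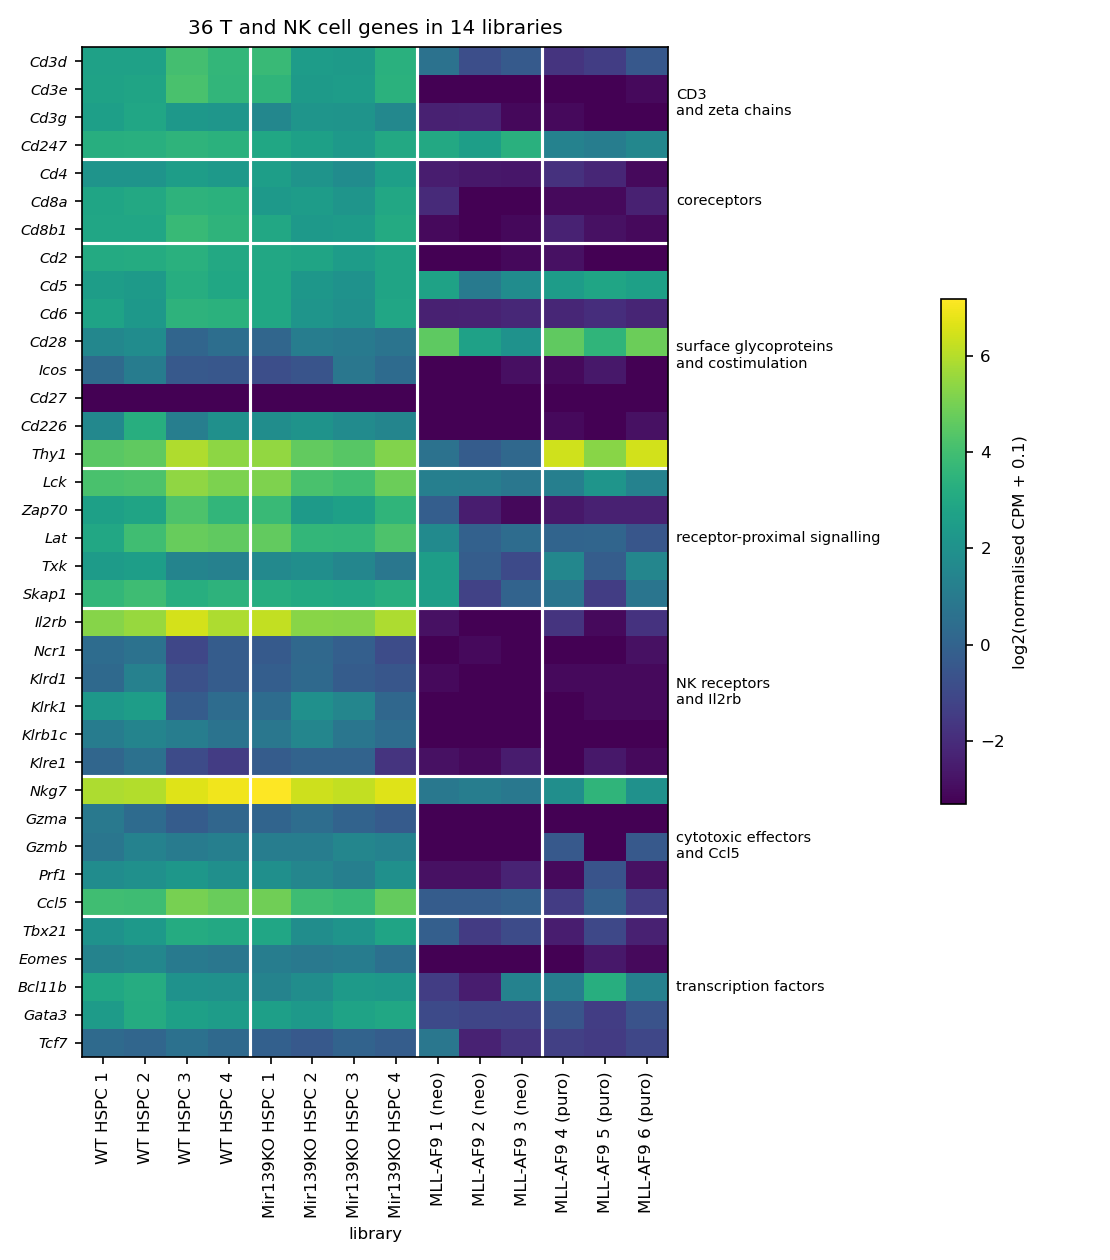
Level of the 36 T and NK cell genes (rows, grouped by role) in the 14 libraries (columns), as log2 of normalised CPM plus 0.1 (colour scale). Rows are dark from MLL-AF9 replicate 1 onwards for the CD3 chains, coreceptors and NK receptors, whereas Thy1, Cd28, Cd5 and Cd247 stay light in some or all of the 6 cultures.

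To see how MLL-AF9 cultures differ from normal progenitors, they were compared with WT HSPCs and, side by side, with Mir139KO HSPCs. These comparisons share the 6 MLL-AF9 libraries. Against WT HSPCs, 34 of the 36 genes had enough counts for the test, of which 27 were lower in MLL-AF9 cultures, 1 was higher and 6 did not pass (edgeR quasi-likelihood test, Benjamini-Hochberg adjusted p under 0.05 over 17077 genes). Over all genes tested, 29.4% were called lower and 32.8% higher, which is 5027 and 5603 genes, and on total counts only, without TMM factors, 3129 and 6744. Against Mir139KO HSPCs the counts were again 27 lower, 1 higher and 6 not passing, beside 31.9% of all 16953 genes lower and 37.3% higher, which is 5416 and 6325 genes, and on total counts only 3212 and 8008. The genes called lower or higher were the ones whose groups did not overlap in any library, beside 24.6% of all genes lower without overlap and 25.9% higher in the first comparison, and 28.3% and 29.7% in the second. The median log2 fold change of the 34 genes was -5.43 against WT and -5.30 against Mir139KO HSPCs, while that of all genes tested was 0.14 and 0.16. Of the 34, 19 had 10 counts in too few MLL-AF9 libraries and entered the test through the HSPCs alone, so that a fall was the only change they could show. Among the other 15, 8 were lower. In bulk RNA, fewer cells of a type and less RNA per cell cannot be told apart.

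The CD3 chains fell together. Cd3e, Cd3d and Cd3g lie next to each other on chromosome 9 (GRCm38, 44998740 to 45009627, 44981786 to 44987339 and 44969572 to 44980431) and encode the epsilon, delta and gamma chains. Cd3e had 314, 297, 533 and 319 counts in WT replicates 1 to 4 and 266, 180, 227 and 259 in Mir139KO replicates 1 to 4. In MLL-AF9 cultures it had 1 count in replicate 6 and 0 in the other 5. The ratio of WT to MLL-AF9 levels over the groups was 3078 with a 95% counting interval of 551.5 to 121600, and the groups did not overlap. Cd3g was lower by -7.09 on the log2 scale (SE 0.737, adjusted p 1.55e-05), with 0 to 5 counts per culture.

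Cd3d stayed readable in the cultures at 0.201 to 1.47 normalised CPM, against 6.32 to 16.3 in WT HSPCs, and its log2 fold change was -4.04 (SE 0.560) with an adjusted p of 0.000109. Cd247, the gene of the zeta chain on chromosome 1 (GRCm38, 165788681 to 165877277), differed from its CD3 partners. Its normalised CPM were 9.61, 9.73, 11.4 and 10.3 in WT and 7.45, 6.09, 4.98 and 7.93 in Mir139KO HSPCs. In MLL-AF9 cultures they were 7.88, 5.75 and 10.1 with the neo vector and 2.45, 2.07 and 2.81 with the puro vector. The neo cultures lay in the range of the HSPC libraries and the puro cultures below it. Over all 6 cultures the log2 fold change against WT was -0.99 (SE 0.454, adjusted p 0.0753), with the puro cultures alone -2.05 (SE 0.357, adjusted p 0.00168) and with the neo cultures alone -0.34 (SE 0.368, adjusted p 0.446). It passed over all 6 cultures in DESeq2 (adjusted p 0.0393), with all 14 libraries in a single fit (adjusted p 0.042), with a GC correction (log2 fold change -1.80, adjusted p 0.0075) and without MLL-AF9 replicate 3 (-1.27, adjusted p 0.0258). Of the 5329 exon bases of Cd247, only 2116 lie in no other gene. The others are shared with Gm16565 on the same strand or Pou2f1 on the opposite strand. The strand setting of the counting was not given in the sources used here, and it would not separate Cd247 from Gm16565.

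The coreceptor genes were all lower. Cd4 had 131 to 206 counts in the WT libraries and 1 to 9 in the MLL-AF9 libraries. The alpha and beta chains of CD8, Cd8a and Cd8b1, had 276 to 346 and 300 to 406 counts in WT HSPCs and at most 7 and 5 in the cultures. Their log2 fold changes against WT were -5.78 (SE 0.501) for Cd4, -7.57 (SE 0.775) for Cd8a and -8.14 (SE 0.631) for Cd8b1, with adjusted p of at most 1.39e-05.

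Of the surface glycoproteins and costimulatory receptors, 4 of the 7 tested were lower in MLL-AF9 cultures. Cd2, an adhesion receptor, had 217 to 404 counts in the WT libraries and 3 in all MLL-AF9 libraries together, a ratio of 909 (95% counting interval 310 to 4413). Cd226, an activating receptor shared by T and NK cells, also had 3 counts in the cultures (ratio 500, interval 170 to 2430). Cd6, an inhibitory receptor and paralogue of CD5, was at 4.80 to 10.99 normalised CPM in WT HSPCs and at 0.0968 to 0.156 in the cultures (log2 fold change -6.09, SE 0.388). Icos, the inducible costimulator, had 17 to 88 counts in WT HSPCs and 0 to 3 in the cultures (log2 fold change -5.69, SE 0.742).

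Cd5, whose gene lies beside Cd6 on chromosome 19 (GRCm38, 10717116 to 10739002), did not move with it. Its normalised CPM were 5.59, 5.24, 9.29 and 7.61 in WT HSPCs and 7.63, 4.60, 3.98 and 6.98 in Mir139KO HSPCs. The MLL-AF9 cultures had 6.49, 1.93 and 3.35 with neo and 5.45, 7.12 and 6.18 with puro. Only MLL-AF9 replicates 2 and 3 were below every HSPC library. The log2 fold change was -0.45 (SE 0.389, adjusted p 0.328) against WT and -0.20 (SE 0.382, adjusted p 0.655) against Mir139KO HSPCs, and with a GC correction it was 0.35 against WT (adjusted p 0.375).

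Cd28, the main costimulatory receptor of T cells (GRCm38, chromosome 1, 60716800 to 60773359), was the single gene of the 36 that was higher in MLL-AF9 cultures. It was at 2.77, 3.38, 0.969 and 1.30 normalised CPM in WT and 0.991, 2.06, 1.86 and 1.56 in Mir139KO HSPCs. The neo cultures had 23.5, 6.27 and 3.93 and the puro cultures 24.6, 11.5 and 28.0. Every culture was above every HSPC library, although replicate 3 was close to the highest of them. Cd28 rose by 2.95 on the log2 scale against WT (SE 0.641, adjusted p 0.00187) and by 3.32 against Mir139KO HSPCs (SE 0.587, adjusted p 0.000319). With a GC correction alone, the rise was 1.81 against WT (adjusted p 0.0201) and 1.94 against Mir139KO HSPCs (adjusted p 0.0129). With the replicate number as a block as well, it was 1.20 (adjusted p 0.105) and 1.29 (adjusted p 0.0844) and did not pass. That block left MLL-AF9 replicates 5 and 6 without an HSPC partner, so that these values rest on replicates 1 to 4. Icos, which lies near Cd28 on the same chromosome and belongs to the same receptor family, moved the other way.

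**Figure D2:**
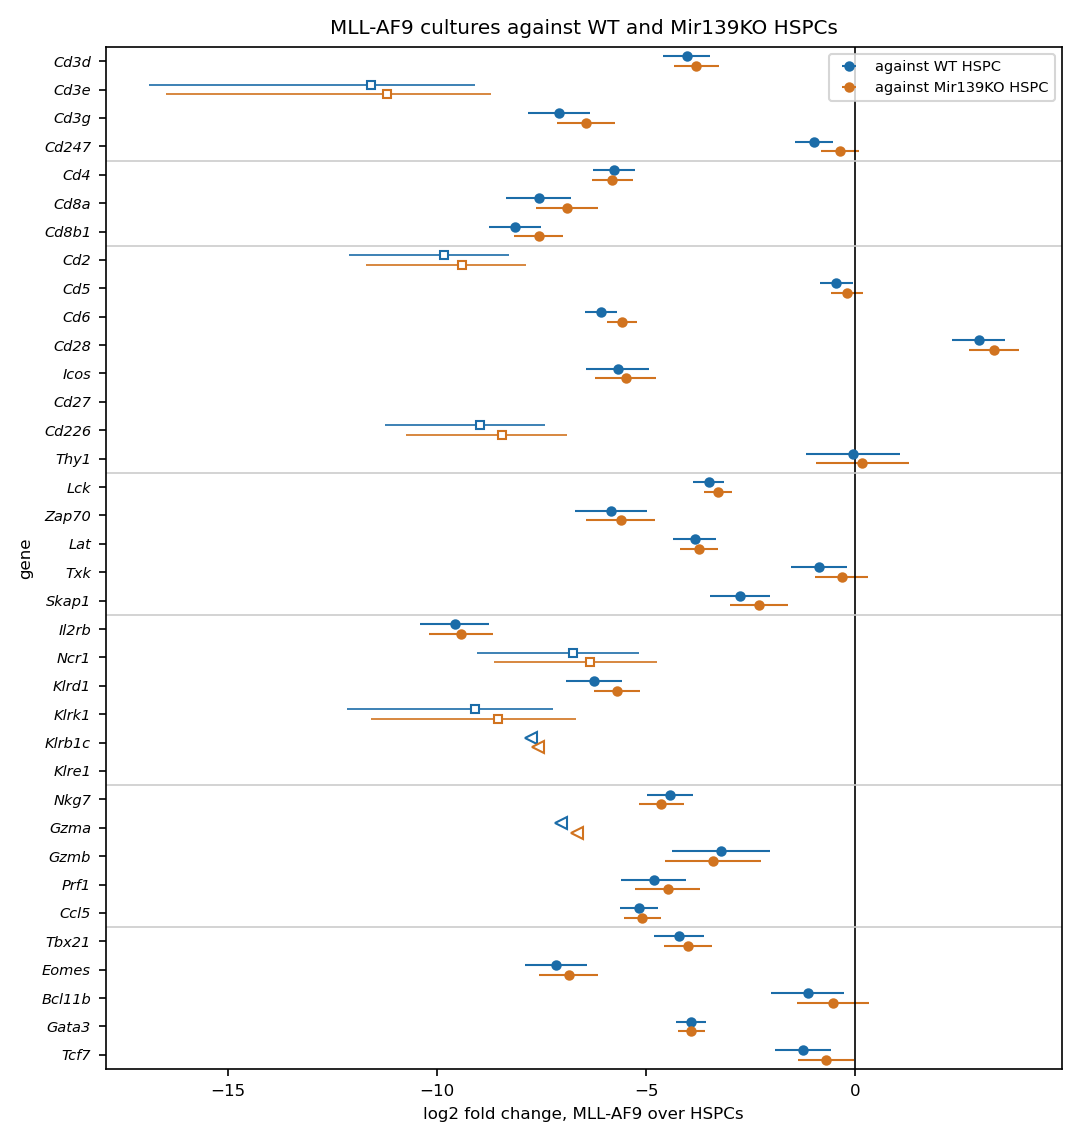
Log2 fold change of each gene (rows, grouped by role) in MLL-AF9 cultures over WT HSPCs (blue) and over Mir139KO HSPCs (orange); filled points are fitted values with bars of 1 SE, open squares are ratios of summed levels with 95% counting intervals for genes with 1 to 3 counts in all cultures, and open triangles mark bounds at 3 counts for genes at 0; Cd27 and Klre1, not tested, have no point. Cd28 lies to the right of 0, Thy1, Cd5, Txk, Cd247, Bcl11b and Tcf7 lie near it, and 27 genes lie to the left.

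Of the 5 signalling genes close to the receptor, 4 were lower. Lck, the kinase that starts the signal, was at 17.7 to 42.7 normalised CPM in WT HSPCs and at 1.69 to 4.398 in MLL-AF9 cultures, where it had 93 to 225 counts (log2 fold change -3.51, SE 0.363, adjusted p 1.49e-05). Zap70 had 295 to 561 counts in WT HSPCs and 40, 4, 1, 3, 5 and 5 in MLL-AF9 replicates 1 to 6 (log2 fold change -5.84, SE 0.859). Lat was lower by -3.84 (SE 0.515), from 7.74 to 26.6 in WT HSPCs to 0.603 to 3.14 normalised CPM in the cultures.

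Skap1, an adaptor that links the receptor to integrins, was lower by -2.76 (SE 0.717, adjusted p 0.00531) and overlapped no WT library. Txk, a kinase of the Tec family, was at 5.41, 5.77, 2.57 and 2.34 normalised CPM in WT HSPCs and at 5.67, 0.749, 0.417, 2.84, 0.762 and 2.75 in MLL-AF9 replicates 1 to 6. The groups overlapped, and its log2 fold change was -0.87 (SE 0.664, adjusted p 0.27). MLL-AF9 replicate 1 was the highest culture for Zap70, Lat, Skap1, Txk, Cd3d and Tcf7. Without it, Tcf7 was lower by -2.23 against WT (SE 0.421, adjusted p 0.00116), whereas with all 6 cultures its log2 fold change was -1.25 (SE 0.665, adjusted p 0.12).

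NK receptor genes were at or close to 0 in the cultures. Il2rb, a chain shared by the IL-2 and IL-15 receptors, had the highest level per kb of the group, with 1854, 2020, 2710 and 1591 counts in WT and 1714, 1381, 1581 and 1494 in Mir139KO HSPCs. In MLL-AF9 replicates 1 to 6 it had 2, 0, 0, 10, 1 and 10 counts. The log2 fold change was -9.58 against WT (SE 0.828, adjusted p 4.57e-06) and -9.44 against Mir139KO HSPCs (SE 0.764, adjusted p 1.28e-06).

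Klrb1c, which encodes the NK1.1 antigen, had 311 counts over the WT libraries and 231 over the Mir139KO libraries. It had none in the cultures, at least 218-fold lower than in WT and at least 193-fold lower than in Mir139KO HSPCs, at a floor of 3 counts over the group. Klrk1 (NKG2D) had 522 counts in WT HSPCs and 2 in the cultures (ratio 549, 95% counting interval 151 to 4546). Ncr1 (NKp46) had 153 and 3 (ratio 107, interval 36.03 to 526). Klrd1 (CD94), which pairs with NKG2 receptors, was lower by -6.25 (SE 0.673), with 0 to 1 counts per culture. Klre1 had 7 to 61 counts in WT HSPCs and at most 4 in a culture, and too few libraries with 10 counts for the test.

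All 5 effector genes of cytotoxic cells were lower in both comparisons. Nkg7 was at 59.4, 62.4, 103 and 124 normalised CPM in WT HSPCs and at 145, 82.3, 73.9 and 103 in Mir139KO HSPCs. It kept 1.72, 2.11 and 1.72 in neo and 3.50, 11.6 and 3.88 in puro cultures, which is 89 to 591 counts per library (log2 fold change against WT -4.43, SE 0.553, adjusted p 5.45e-05). Ccl5, a chemokine of activated T and NK cells, was at 14.99 to 32.05 normalised CPM in WT HSPCs and at 0.261 to 0.870 in the cultures (log2 fold change -5.18, SE 0.457).

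Gzma, the tryptase of cytotoxic granules, had 187 counts over the WT libraries and none in the cultures, at least 131-fold lower over the group. Prf1, which encodes the pore-forming protein perforin, was lower by -4.82 (SE 0.785), with 29 of its 42 culture counts in MLL-AF9 replicate 5. Gzmb, the other main granzyme, had 79, 106, 58 and 59 counts in WT HSPCs and 0, 0, 0, 33, 0 and 35 in MLL-AF9 replicates 1 to 6. Its fall of -3.21 (SE 1.18, adjusted p 0.0309) did not pass with the puro cultures alone (adjusted p 0.0679), with the WT libraries under or over 25% Gm26917 alone (adjusted p 0.131 and 0.103), without WT replicate 2 or 4 (adjusted p 0.0548 and 0.0554), on total counts only or in DESeq2 (adjusted p 0.113).

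Among the transcription factors, Tbx21, Eomes and Gata3 were lower, by -4.22 (SE 0.598), -7.16 (SE 0.744) and -3.93 (SE 0.354) against WT. Eomes had 45 to 121 counts in WT HSPCs and 0, 0, 0, 0, 3 and 1 in the cultures. Gata3, which T helper cells and innate lymphoid cells share, kept 14 to 29 counts per culture. Bcl11b, a factor of T lineage commitment, was at 7.49, 8.92, 3.98 and 3.86 normalised CPM in WT HSPCs, at 0.271, 0.0788 and 2.39 in neo and at 2.09, 9.62 and 2.28 in puro cultures. The cultures covered a wider range than the HSPC libraries, and replicate 5 was above all of them. The log2 fold change was -1.14 (SE 0.877, adjusted p 0.272), with the neo cultures alone -2.70 (SE 0.943, adjusted p 0.0319) and without replicate 5 -2.09 (SE 0.778, adjusted p 0.0356). Tcf7, which encodes TCF-1, had 30 to 55 counts in WT HSPCs and 5 to 87 in the cultures.

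To see whether the cultures of the 2 vectors differed, puro was compared with neo. Only 15 of the 36 genes had enough counts for that test, and 1 passed, Thy1, beside 0.564% of all 16503 genes called higher and 0.309% called lower. Thy1 (GRCm38, chromosome 9, 44043384 to 44048579) encodes a small surface glycoprotein that marks mouse T cells and also some stem cells. It was at 22.2, 24.3, 61.4 and 41.6 normalised CPM in WT and 43.9, 25.2, 21.5 and 36.5 in Mir139KO HSPCs. The neo cultures were at 1.45, 0.729 and 1.07 and the puro cultures at 85.4, 39.3 and 88.2. No puro culture overlapped a neo culture, and 2 of the 3 puro cultures exceeded every HSPC library.

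Thy1 rose by 6.04 on the log2 scale in puro over neo cultures (SE 0.512, adjusted p 0.0125). The direction was the same in every fit tried, with log2 fold changes of 5.82 to 6.35. The test did not pass without MLL-AF9 replicate 2, 3, 4 or 6 in turn (adjusted p 0.0721, 0.0923, 0.0701 and 0.0586) or with replicates 4 and 6 summed (adjusted p 0.0619). These were summed because they were the closest pair of libraries: the spread of their counts was 2.48 times sampling noise, against 5.28 to 149 times for the other pairs within a group, and the labels do not say whether they are separate cultures. Against WT HSPCs, Thy1 in the neo cultures alone was lower by -5.07 (SE 0.558, adjusted p 8.04e-05), in the puro cultures alone its log2 fold change was 0.95 (SE 0.46, adjusted p 0.106), and over all 6 cultures it was -0.06 (SE 1.13, adjusted p 0.968). Against Mir139KO HSPCs the puro cultures alone were higher by 1.19 (SE 0.367, adjusted p 0.0142).

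Of the other 14 genes tested between vectors, Lck and Nkg7 were higher in every puro than in every neo culture, which makes 3 of 15 with Thy1, beside 11.7% of all genes. Cd247 was lower without overlap, 1 of 15 beside 8.17% of all genes. Their log2 fold changes were 0.57 for Lck (SE 0.391, adjusted p 0.599), 1.74 for Nkg7 (SE 0.519, adjusted p 0.205) and -1.69 for Cd247 (SE 0.349, adjusted p 0.09). Nkg7 and Cd247 passed in DESeq2 (adjusted p 0.0186 and 4.3e-05) and when the spread was shared over all 14 libraries (adjusted p 0.0478 and 0.00635), fits that called 8.03% and 4.19% of all genes. The range within a vector was wide for Cd28, whose puro over neo log2 fold change was 0.94 (SE 0.723, adjusted p 0.636).

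**Figure D3:**
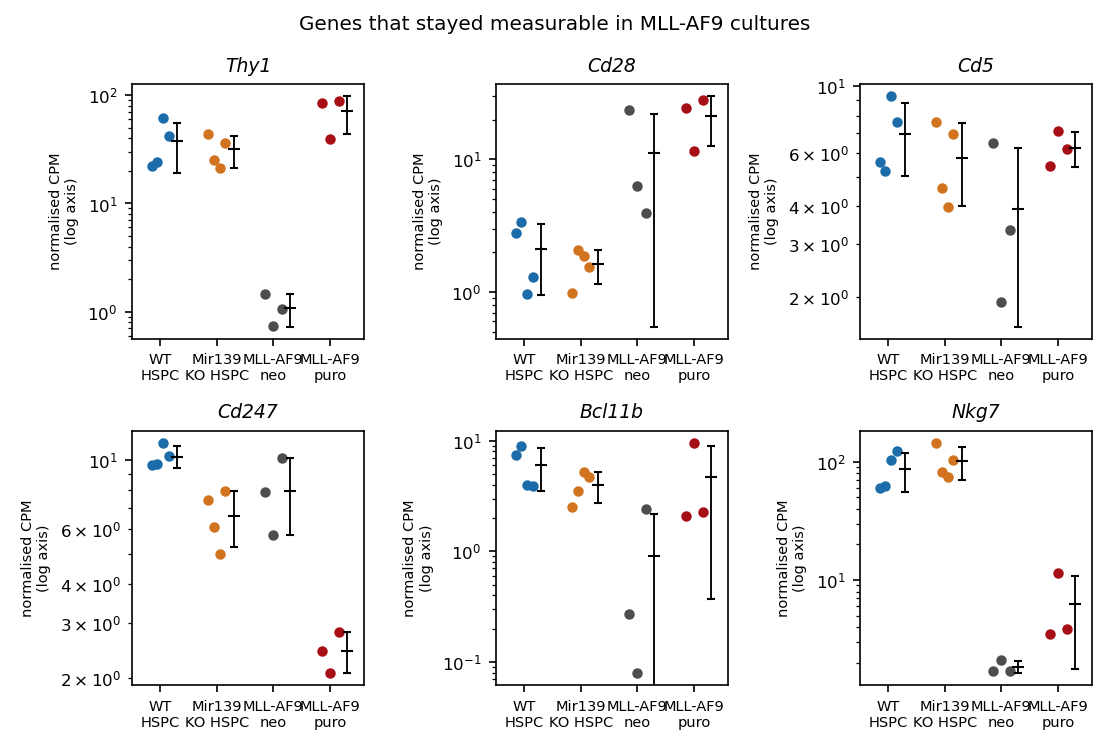
Normalised CPM (log axis) of 6 genes that stayed measurable in MLL-AF9 cultures, by group: WT HSPCs (n = 4), Mir139KO HSPCs (n = 4), neo (n = 3) and puro (n = 3) cultures; points are libraries and bars are the mean ± SD, cut off at the axis for Bcl11b in neo cultures. Thy1 puts the neo cultures near 1 and the puro cultures at 39.3 to 88.2, and Cd28 puts all cultures above the HSPC libraries.

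Other genes of the same pathways were read from lists of 64 genes, 40 of which were tested against WT HSPCs, with 24 lower, 3 higher and 13 not passing. Against Mir139KO HSPCs, 38 were tested, with 24 lower, 6 higher and 8 not passing. The calls by list that follow are against WT HSPCs unless stated. Of the 7 T cell receptor constant genes, 5 were tested and all were lower. All 5 had 10 counts in too few MLL-AF9 libraries, as did some genes of the other lists. These entered the test through the HSPCs, so that a fall was the only change they could show. Trbc1 and Trbc2, the beta chain constant genes, had no counts in any MLL-AF9 library, and Trac, the alpha chain gene, had 3 to 14. Of 12 further genes of T cell receptor signalling, 8 of the 10 tested were lower and 1 was higher. The gene that rose was Ptprc, which encodes CD45 and is carried by all white blood cells (log2 fold change 3.16, SE 0.539, adjusted p 0.000419), and the most abundant of those that fell was Fyn (-1.74, SE 0.579).

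Of 22 other NK and cytotoxic genes, 9 were tested, 5 were lower than in WT HSPCs (Tyrobp, Fcer1g, Ctsw, Fasl and Itga2) and none was higher. The most abundant of these was Tyrobp, an adaptor that myeloid cells also use (-0.95, SE 0.379, adjusted p 0.0438). Of 16 genes of T lineage development, 5 of 12 tested were lower, of which the most abundant was Runx3 (-0.90, SE 0.265), and 2 were higher. These were Runx1, a factor of many blood lineages (2.24, SE 0.381), and Tox, a factor of T cell development (5.79, SE 0.594). Of 7 genes of group 2 innate lymphoid cells, 1 of 4 tested was lower, Il1rl1, the IL-33 receptor, which mast cells carry as well (-7.50, SE 1.13). Against Mir139KO HSPCs, 1 of the 9 tested NK and cytotoxic genes was higher, Cd160 (1.13, SE 0.344, edgeR adjusted p 0.0107). Of the 4 innate lymphoid genes tested there, 2 were lower and 1 was higher, Rora (1.21, SE 0.406, edgeR adjusted p 0.0179).

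Markers of other mature cells that can remain in enriched bone marrow moved in the same comparison. All 7 tested B cell genes, 5 of 5 erythroid genes and 5 of 5 mast cell and basophil genes were lower in MLL-AF9 cultures than in WT HSPCs. The summed level of the 8 B cell genes was 35.1 to 68.4 normalised CPM in WT, 31.4 to 86.7 in Mir139KO and 1.76 to 6.47 in MLL-AF9 libraries, with Ms4a1 at 0 in all. In the same order of groups, that of the 6 mast cell and basophil genes was 527 to 1559, 1044 to 1558 and 4.39 to 19.02, with none at 0 in a group, and that of the 6 erythroid genes 311 to 756, 360 to 784 and 0.801 to 2.38, with Alas2 at 0 in all. The 8 neutrophil lineage genes summed to 4494 to 15078, 11357 to 22748 and 2410 to 4175, and 4 of them were lower. Of 7 plasmacytoid dendritic cell genes, 3 were lower and 2 higher, with summed levels of 67.03 to 83.1, 64.2 to 94.9 and 117 to 264. Most of that sum in each culture was Tcf4, with 401 to 1608 counts in WT and 5053 to 12786 in MLL-AF9 libraries (log2 fold change 2.71, SE 0.421). The higher sum is therefore not a rise of the list as a whole. Bst2, the most abundant of those that fell, was lower by -1.62 (SE 0.286). Irf8 and Cox6a2 were at 0 in all libraries and Ly6d in the cultures. Of the 8 stem and progenitor genes, 5 were lower, with 301 to 397, 287 to 419 and 50.3 to 135. The part of these other cells in the fall of T and NK cell genes was not tested.

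To see whether loss of Mir139 changes these genes in normal progenitors, Mir139KO HSPCs were compared with WT HSPCs. None of the 35 genes tested passed in edgeR or in DESeq2, beside 0% of all 15056 genes called higher and 0% called lower. Unadjusted p was under 0.05 for 4 of the 35 in edgeR and 3 in DESeq2, beside 86 and 90 of all 15056 genes (0.571% and 0.598%). Log2 fold changes ranged from -0.70 in Cd8a (SE 0.289, edgeR p 0.0362 before and 0.9999 after adjustment) to 0.20 in Nkg7 (SE 0.319). Their median was -0.32, beside -0.03 for all genes tested. The same comparison within a class of Gm26917 share rests on a pair of libraries per genotype and reuses libraries of the full fit. Under 25% these were WT replicates 1 and 2 and Mir139KO replicates 2 and 3. Over 25% they were WT replicates 3 and 4 and Mir139KO replicates 1 and 4. Within the HSPC libraries under 25% Gm26917 the medians were -0.45 and -0.01, and within those over 25% they were -0.21 and 0.01, with no call among the 35. Unadjusted p was under 0.05 for 10 and 5 of the 35 there, beside 21% and 3.8% of all genes.

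Of the 35 genes, 5 were lower in every Mir139KO than in every WT library and none was higher in every one, beside 0.272% and 0.219% of all genes. These were Cd3g, Cd247, Cd2, Skap1 and Tcf7. Cd247 showed the clearest gap, with 9.61 to 11.4 in WT against 4.98 to 7.93 normalised CPM in Mir139KO libraries, a log2 fold change of -0.65 (SE 0.256, p 0.0308 in the edgeR quasi-likelihood test before adjustment). Skap1 was at 9.56 to 15.1 against 7.84 to 9.41, and Cd2 at 8.06 to 10.0 against 5.54 to 7.67. On plain CPM, which leave out the TMM factors, 6 genes were lower without overlap (Cd3e, Cd247, Cd8a, Cd8b1, Cd5 and Cd6), beside 0.385% of all genes, and Cd247 was the only one found on both scales. Whether the 35 genes vary independently of each other between samples was not tested.

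Because the share of Gm26917 split each genotype in the same way, the 4 HSPC libraries over 25% were also compared with the 4 under 25%, with the genotype as a covariate. Of the 35 genes, 14 were higher and 8 lower in the high-share libraries, beside 32.9% and 36.5% of all genes, so that the share that moved was near that of all genes. On total counts only, 3 were higher and 18 lower, with the median of all genes at -0.695. The split ran through the CD3 chains. Cd3d and Cd3e were higher by 1.17 (SE 0.163) and 1.08 (SE 0.165), whereas Cd3g was lower by -0.56 (SE 0.159). Klrk1 was lower by -1.97 (SE 0.268) and Zap70 higher by 1.20 (SE 0.178).

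The GC content of each gene, taken from its longest transcript, moved with this split. Of 17 genes over 50% GC, 12 were higher and 1 lower, and of 18 genes at most 50%, 2 were higher and 7 lower. Over all genes tested the split was of the same kind, with 59.3% higher and 8.16% lower over 50% GC, and 7.4% higher and 64% lower at most 50% GC. Klrk1 had 32.7% GC, Cd3g 38.5% and Zap70 59.6%. Cd3e, with 44.5% GC, was among the 2 higher genes at most 50%. With a GC correction, 9 of the 35 genes were higher and 3 lower, beside 15.7% and 27.8% of all genes. Of these 12, 8 were among the 22 called before, and Cd3g, Klrd1, Cd5 and Tbx21 changed sign. Ratios between T and NK cell genes within an HSPC library therefore differed by library class, for which the cause was not tested. None of the 35 genes passed the test of a genotype effect that differs between the classes (interaction term, edgeR, lowest adjusted p 0.29 in Skap1).

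**Figure D4:**
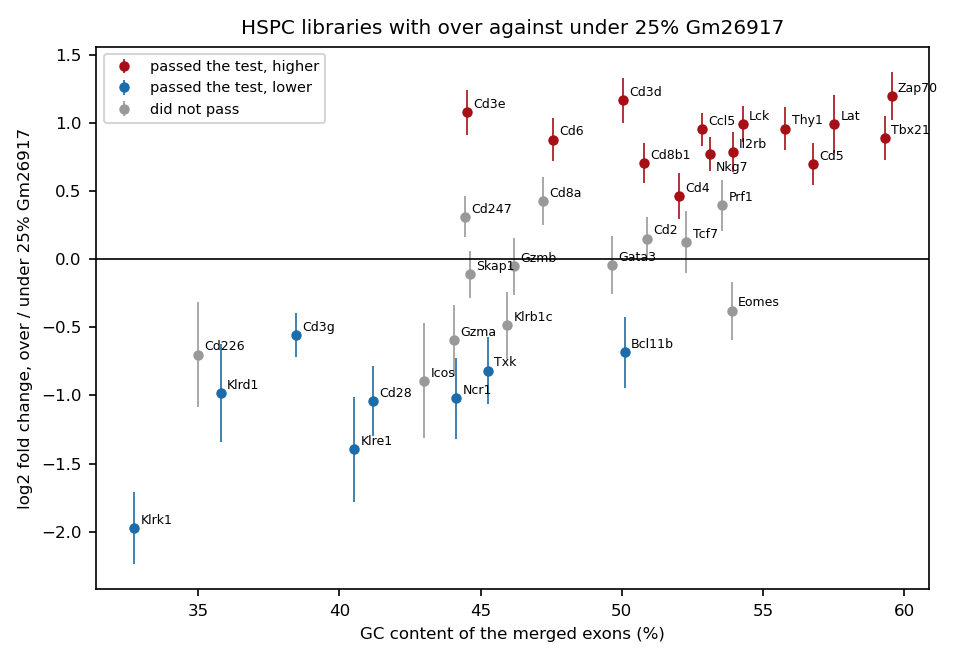
Log2 fold change (± SE) of 35 T and NK cell genes in the 4 HSPC libraries over 25% Gm26917 against the 4 under 25%, plotted against GC content in percent. The GC content is that of the longest transcript of each gene, although the axis label names merged exons. Genes that passed as higher (red, 14) lie mostly above 50% GC and those that passed as lower (blue, 8) mostly below.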

How the data were processed

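The authors aligned reads of ribosome-depleted total RNA with STAR 2.5.3e to GRCm38 and deposited raw counts per gene from featureCounts 1.6.0, according to the submitters' processing notes; the strand setting was not given in the sources used here. Another 10 columns, from samples of a different series, were left out. Groups, vectors and replicate numbers came from the sample labels. The 36 genes and the other lists were chosen with earlier results of these data known. Names, positions and GC content (of the longest transcript of each gene) were from GENCODE M21 (52403 of 52550 identifiers matched), promoter windows from RefSeq. Each comparison used its own groups in edgeR 4.0.16 with limma 3.58.1 (R 4.3.3): TMM factors, genes with at least 10 counts in as many libraries as the smaller group has, robust quasi-likelihood F test, and Benjamini-Hochberg adjustment over all genes tested. The SE was the log2 fold change over the square root of F. The alternative fits included DESeq2 1.42.0 and a GC correction (a spline of 5 degrees of freedom for each library). Steps were tested on simulated data. All 36 genes are named, and of the other lists the passing genes with the highest mean level per kb. Named after their values were seen were Trac, Trbc1, Kit, Cd34, Flt3, Ly6a, Tox, Fcer1g, Ctsw, Fasl, Itga2 and the markers at 0. Counting intervals (95%, exact) and floors cover counting error only.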

Additional observations from a re-analysis of the deposited data

Results flagged for a closer look

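In 89 combinations of a gene and a group with at least 10 counts in a library, 8 held a library whose gap to the next was large for the range of its group. The rule flags about 1 in 20 when values are normally distributed and not chosen by their highest library. Zap70 and Prf1 reached 10 counts in the cultures only in the library that stood out, so the 8 cannot be set against that rate. All 8 were in MLL-AF9 cultures. Replicate 1 was high for Zap70 (0.774 normalised CPM against 0.0181 to 0.0977 in the other 5), Lat (3.14 against 0.603 to 1.20), Skap1 (5.75 against 0.274 to 1.601) and Tcf7 (1.68 against 0.0985 to 0.377). Replicate 5 was high for Lck (4.398 against 1.69 to 2.39), Nkg7 (11.6 against 1.72 to 3.88), Prf1 (0.567 against 0.0201 to 0.109) and Bcl11b (9.62 against 0.0788 to 2.39).

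Thy1 differed between the vectors, with a log2 fold change of 6.04 in puro over neo cultures (edgeR, adjusted p 0.0125), higher in 3 of 3 puro cultures.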

How the results depend on the processing

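The number of genes called stayed within 1.5 times in the alternatives tried for MLL-AF9 against WT HSPCs and against Mir139KO HSPCs, and was 0 in every fit of Mir139KO against WT HSPCs. Of the 28 genes called in each MLL-AF9 comparison, 26 and 25 passed in every fit that gave an adjusted p, and none changed direction. The exceptions were Cd28 and Gzmb in both and Skap1 against Mir139KO HSPCs, on total counts (adjusted p 0.0844) and with the low-share HSPCs (adjusted p 0.0774). On total counts the median of all genes against WT moved from 0.14 to 0.69, with 27 of the 36 genes called. Between the vectors, 3 genes were called by DESeq2, 3 with all 14 libraries in a single fit and 0 with replicates 4 and 6 summed, and leaving out single replicates gave 0 to 2. For the high-share HSPC libraries, a comparison added with the data known, 12 genes were called with the GC correction, 8 of them among the 22 called without it. Under it Cd3g turned to 0.50, Cd5 to -0.13, Klrd1 to 0.0695 and Tbx21 to -0.0728, and on total counts Cd4 turned to -0.215, none of these passing. With the replicate number as a block, 31, 30, 0 and 1 genes were called in the 4 comparisons. In no comparison did every pair of same-numbered samples correlate above 0.1 (-0.658 to 0.719 between Mir139KO and WT, -0.0539 to 0.115 between MLL-AF9 and WT, 0.0247 to 0.224 between MLL-AF9 and Mir139KO, and -0.338 to 0.468 between the vectors), so the numbers were not taken as pairs. Against HSPCs the block leaves MLL-AF9 replicates 5 and 6 without a partner, so that fold changes rest on replicates 1 to 4, of which only replicate 4 is puro. Thy1 was then at -3.90 against WT (adjusted p 0.0209). The cause of these changes was not tested. At 3 counts per library, levels under 0.0544 to 0.129 normalised CPM could not be read, which limits most NK receptor genes in MLL-AF9 cultures.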
